A study of Mus musculus with 12 samples.

Results

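Bone-marrow derived macrophages given tumor material freed of myelin were compared directly with macrophages given myelin, over all genes. The comparison rests on 6 of the 12 libraries of the series, the 3 of the group named Tumor without Myelin and the 3 of the group named Myelin Alone, chosen by their labels and paired by the mn number of the sample (957, 958 or 016), which each group holds once. Of 24728 genes in the table, 13414 had enough counts to be tested. The macrophages are mouse cells that carry dTomato, a red fluorescent protein, and were sorted by it from ex vivo assays with dissociated brain tumor. This source is given for both groups, while the titles of the Myelin Alone libraries name myelin and no tumor. The 3 Control libraries and the 3 Full Tumor libraries entered the same fit, so that all groups share an estimate of the spread, and Control values are printed beside the others. The labels do not give the age, sex or strain of the mice, what Control cells received, how long the exposure lasted, how myelin was removed, what mn stands for, or which tumor model was used. Macrophages grown from marrow are not the microglia that reside in brain. The labels name no separate animals or cultures behind the libraries of a group. The p-values here therefore describe library-to-library spread, part of which may be technical.

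Myelin is the lipid-rich sheath around axons, and macrophages that take it up have to store or export its cholesterol. Sterol surplus holds back SREBP2, the transcription factor that drives cholesterol synthesis, while oxysterols activate LXR, which drives export through ABCA1 and ABCG1. In macrophages, interferons induce antiviral genes through STAT2 and IRF9, the complement component C1q and Fc receptors tag and bind material for uptake, and NRF2 drives enzymes of the glutathione and thioredoxin systems.

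The 6 libraries held 17071673 to 19469186 counts, and a count of 0 allows up to 3 counts, or 0.154 to 0.182 CPM (counts scaled to a common library size, with TMM factors of 0.965 to 1.03); these floors cover counting error only. On the leading principal component (31.6% of the variance) the 4 libraries numbered 016 had positive values and the other 8 negative values. The 10 defining markers of macrophages summed to 17372 to 19181 CPM in Tumor without Myelin and 14019 to 16296 CPM in Myelin Alone, and 2 of the 10 were called higher. Of markers of other cells, Ly6g (neutrophils), Cd3e (T cells), Mog (oligodendrocytes) and Sox2 (neural progenitors) were at 0 counts in all 6 libraries. Other markers of these cells had counts. Neutrophil markers summed to 169 to 209.9 CPM in Tumor without Myelin and 112 to 297 CPM in Myelin Alone. In the same order, oligodendrocyte markers summed to 129 to 158 and 121 to 129 CPM. Tumor and progenitor markers summed to 47.96 to 121 and 49.3 to 143 CPM. Monocyte markers, in the order 957, 958 and 016, summed to 32.6, 18.3 and 128 CPM in Tumor without Myelin. They summed to 17.6, 12.96 and 134 CPM in Myelin Alone and 14.6, 28.6 and 138 CPM in Control, highest in number 016. The neutrophil genes Mpo and Elane were at 0 in numbers 957 and 958 of both compared groups. In number 016 they were at 10.6 and 9.23 CPM with tumor material and 27.2 and 11.8 CPM with myelin. Csf3r of the same list was lowest in number 016, at 22.7 and 18.3 CPM. No marker of these lists was called, and their source was not tested. Fewer cells of a type and less RNA per cell cannot be told apart in such bulk libraries.

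Tumor without Myelin and Myelin Alone differed in a limited set of genes. Interferon-induced genes, C1q, Fc receptors, MS4A proteins and cholesterol synthesis genes were among those higher with the tumor material, and glutathione enzymes and the cholesterol exporter Abcg1 among those lower. Of 13414 tested genes, 125 (0.932%) had an edgeR adjusted p under 0.05 with the mn number as a block, and such genes are named called here. In Tumor without Myelin 89 genes (0.663%) were higher and 36 (0.268%) lower. The 125 kept 1 direction in the 3 pairs, and 89 had groups that did not overlap in CPM. Over all tested genes, groups did not overlap in 576 genes that were higher (4.29%) and 559 that were lower (4.17%). These shares of called and not overlapping genes are the background for the counts given below for each list. All log2 fold changes below are Tumor without Myelin minus Myelin Alone unless a sentence says otherwise, with a standard error derived from the test. Library values are in CPM, in the order 957, 958 and 016.

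These calls rest on the pairing and on few libraries. Without the block a single gene was called, Dck (1 higher, 0 lower, with 601 genes at an unadjusted p under 0.05, against 1379 with the block). Leaving out 1 of the 12 libraries at a time left 26 to 211 calls, the fewest without Myelin Alone 958 and the most without Control 016. Leaving out a whole number left 1 call without 957, 5 without 958 and 182 without 016, of which 80 were among the 125. The direction of the 125 was kept under each of these settings. The 20 genes that stayed called without any single library were Aif1, C5ar1, Ccl6, Cd72, Ctsc, Dab2, Dck, Fgd2, Gm20658, Gsta3, Ly86, Ms4a6b, Ms4a6c, Nxpe5, Pilra, Procr, Serpinb9b, Themis2, Zfp36 and Zfp36l1.

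**Figure D1:**
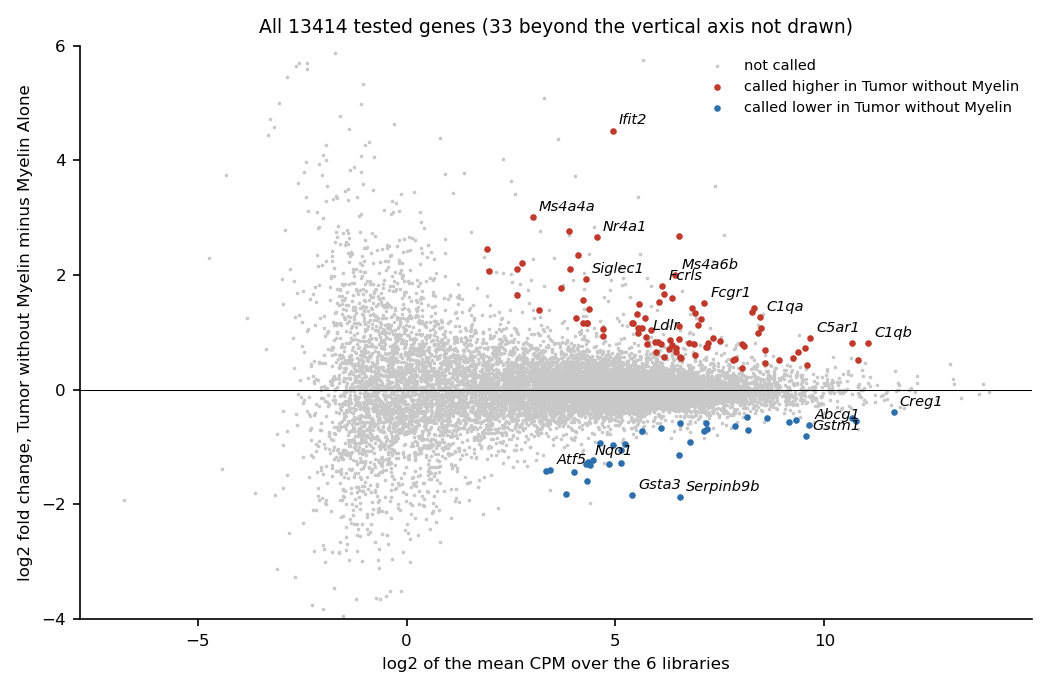
Each point is a tested gene, with the log2 of its mean CPM over the 6 libraries on the horizontal axis and its log2 fold change, Tumor without Myelin minus Myelin Alone, on the vertical axis; 33 genes beyond the vertical axis are not drawn. Red points are genes called higher, of which Ifit2 at 4.52 is the highest drawn (Gm4951 and Slfn1, also called, lie beyond the axis), and blue points the 36 called lower, with Serpinb9b at -1.87 as the lowest of these.

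Of the genes of cholesterol synthesis, 4 were called higher with the tumor material than with myelin and 0 lower. Of 24 genes of the list of cholesterol synthesis and SREBP2 targets, 23 were tested. All 23 had positive log2 fold changes, with a median of 0.63 (range 0.01 to 1.05), against a median of -0.01 and 6590 higher of 13414 over all tested genes. Called higher were 4, among them Cyp51, Insig1 and Sqle, and 14 had groups that did not overlap. Summed over the 23 genes, levels were 1299, 1218 and 1173 CPM in Tumor without Myelin, 884, 751 and 880.4 CPM in Myelin Alone and 1310.2, 1231 and 1563 CPM in Control. The 3 sums with tumor material lay above the 3 with myelin, and the median log2 ratio was 0.70 in pair 957, 0.82 in 958 and 0.43 in 016.

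Insig1, which retains the SREBP complex in the endoplasmic reticulum (ENSMUSG00000045294, chr5:28071363-28078662 on mm10), was at 61.5, 81.9 and 43.1 CPM against 29.9, 41.3 and 22.3 CPM. Each library with tumor material was above all 3 with myelin, and the log2 fold change was 0.99 ± 0.18 (edgeR adjusted p = 0.0292).

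Sqle, squalene epoxidase (ENSMUSG00000022351, chr15:59315077-59331192), was at 126, 81.3 and 119 CPM with tumor material and 67.1, 54.2 and 75.5 CPM with myelin. Cyp51, lanosterol demethylase (ENSMUSG00000001467, chr5:4081145-4104746), was at 96.2, 73.5 and 80.0 CPM against 54.9, 41.6 and 44.7 CPM. Both genes had groups that did not overlap, with log2 fold changes of 0.72 ± 0.14 for Sqle (edgeR adjusted p = 0.0337) and 0.82 ± 0.14 for Cyp51 (edgeR adjusted p = 0.0205). Hmgcs1, the synthase that starts the mevalonate pathway, was at 64.1, 54.7 and 53.5 CPM against 51.4, 28.1 and 30.3 CPM (0.67 ± 0.21, edgeR adjusted p = 0.227). It was not called, although its groups did not overlap. With 1 library left out the adjusted p of the called genes named here reached 0.135 (Cyp51) and 0.204 (Sqle) without Tumor without Myelin 957, and 0.160 (Insig1) without Myelin Alone 958.

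The Control libraries place these values. Myelin Alone minus Control had a median log2 fold change of -0.71 over the 23 genes, and Tumor without Myelin minus Control a median of -0.11; both use the same 3 Control libraries. Against Control, 5 genes (0.0373%) were called for myelin and 100 (0.745%) for tumor material without myelin. Cyp51 in Control was at 103, 78.4 and 113 CPM, and fell by 1.06 ± 0.14 on the log2 scale with myelin (edgeR adjusted p = 0.0307), while its difference with tumor material was -0.24 ± 0.14 (edgeR adjusted p = 0.664). Sqle in Control was at 142, 110.0 and 223 CPM, and fell by 1.23 ± 0.14 with myelin (edgeR adjusted p = 0.0137), while its difference with tumor material was -0.51 ± 0.13 (edgeR adjusted p = 0.151).

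A promoter of this list shows the element that SREBP factors bind. RefSeq promoters (GRCm38.p6, the assembly also named mm10; from 250 bases before to 50 after a gene's start) were matched by symbol for 89 of the 125 called genes. All 32851 promoters were searched on both strands for the letters TCACNCCAC of the sterol response element. Tested members of the list were counted whether called or not. The letters were found for 1 of 16 genes of the list with a matched promoter, Hmgcs1, and in 1.24% of the 32851 promoters. The list is counted by gene and the background by promoter, so these shares are not in like units. The stretch, chr13:119690194-119690242 on the plus strand, is shown with the match in capitals.
Hmgcs1: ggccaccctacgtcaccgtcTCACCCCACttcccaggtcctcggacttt
A match of letters is a description and not evidence of binding, and other spellings of the element were not searched.

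**Figure D2:**
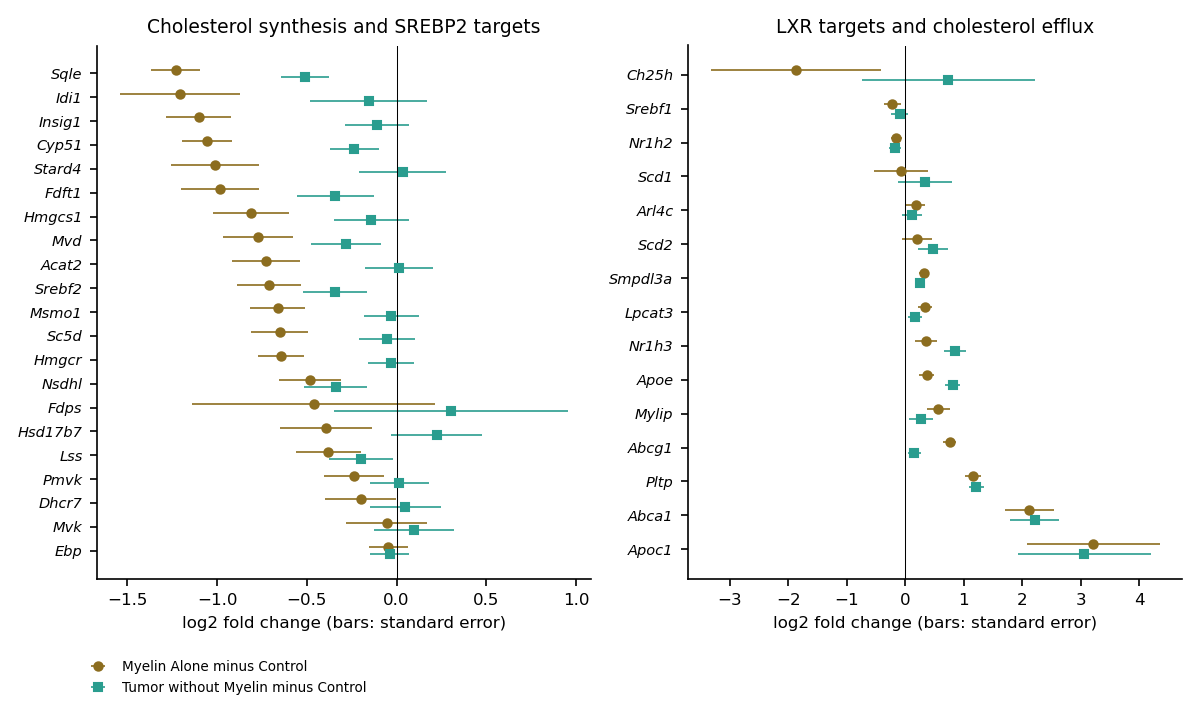
Log2 fold changes against Control (horizontal axis, bars are standard errors) of tested members of 2 gene lists (not all are drawn), for Myelin Alone (brown circles) and Tumor without Myelin (green squares), which share the Control libraries. In the list of the left panel the median lay at -0.71 for myelin and -0.11 for tumor material; in the right panel Pltp and Abca1 lay to the right of 0 for both and Abcg1 further right for myelin.

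Of 15 tested members of the list of LXR targets and genes of cholesterol export, 8 had positive and 7 negative log2 fold changes, with a median of 0.06, and 1 was called, Abcg1, which was lower. Abcg1, the exporter that loads cholesterol onto HDL (ENSMUSG00000024030, chr17:31057675-31117988), was at 711, 618 and 530.0 CPM with tumor material and 1041, 1060 and 755 CPM with myelin. The groups did not overlap, and the log2 fold change was -0.61 ± 0.11 (edgeR adjusted p = 0.0291; 0.194 without Myelin Alone 958). Control was at 717, 497 and 474 CPM, below the 3 libraries with myelin.

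Abca1, the exporter that loads cholesterol onto lipid-poor apolipoproteins, was at 91.4, 137 and 73.1 CPM with tumor material and 118, 144 and 47.4 CPM with myelin, against 35.8, 39.7 and 3.73 CPM in Control. The groups overlapped, and the difference of 0.09 had a 95% interval from -0.76 to 0.94. Pltp, which transfers phospholipids between lipoproteins, was at 411, 607 and 164 CPM with tumor material, 509, 475 and 153 CPM with myelin and 236, 201 and 70.3 CPM in Control. Its difference of 0.06 had an interval from -0.23 to 0.34. Against Control, Pltp rose with each: by 1.15 ± 0.13 with myelin (edgeR adjusted p = 0.0137) and by 1.21 ± 0.13 with tumor material (edgeR adjusted p = 0.00289). Abca1 rose with tumor material (2.21 ± 0.42, edgeR adjusted p = 0.0347), and its value with myelin was 2.12 ± 0.41 (edgeR adjusted p = 0.190). Apoe, the apolipoprotein of macrophage lipid export, was at 8354, 14049 and 5105 CPM with tumor material and 6984, 11441 and 3013 CPM with myelin, higher in each pair, with overlapping groups (0.44 ± 0.13, edgeR adjusted p = 0.156).

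Lists of lipid storage and of the lipid-associated macrophage state showed small differences. None of 18 tested lipid-associated macrophage markers was called by edgeR, and their log2 fold changes ran from -0.36 to 0.44 with a median of -0.03; DESeq2 called 1 higher and 1 lower, and limma-voom 1 lower. Trem2, a receptor for lipids and lipoproteins, was at 2021, 2394 and 1422 CPM with tumor material and 1867, 2189 and 1686 CPM with myelin, with a 95% interval of the log2 fold change from -0.18 to 0.18. Gpnmb, a glycoprotein of lysosomes, was at 16185, 13390 and 16299 CPM against 18951, 12266 and 16562 CPM, with an interval from -0.25 to 0.16. Cd9, a tetraspanin, was lower in each pair at 1090, 1040 and 1266 CPM against 1415, 1263 and 1513 CPM (-0.30 ± 0.07, edgeR adjusted p = 0.0623).

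Among 21 tested genes of lipid droplets, fatty acid oxidation and PPAR targets, 15 had negative log2 fold changes with a median of -0.11; edgeR and limma-voom called 0 and DESeq2 called 1 lower. Plin2, which coats lipid droplets, was at 2507, 2198 and 2870 CPM against 2932, 2313 and 2914 CPM (-0.11, 95% interval -0.26 to 0.04). Cpt1a, which brings fatty acids into mitochondria, was at 132, 111 and 123 CPM against 178, 172 and 138 CPM. Its groups did not overlap (-0.41 ± 0.12, edgeR adjusted p = 0.158). Acadl, a dehydrogenase of the same pathway, had -0.36 ± 0.11 (edgeR adjusted p = 0.182). The 26 genes of lysosomes and sphingolipid breakdown had a median of -0.02 and 0 calls by edgeR, DESeq2 or limma-voom, with Ctsl, cathepsin L, at 0.33 ± 0.09 and Gla, galactosidase alpha, at -0.34 ± 0.12. Fatty acid synthesis (12 tested) had a median of 0.15 and 0 calls by edgeR, DESeq2 or limma-voom, with Acsl3, an acyl-CoA ligase, at 0.85 ± 0.27 and Fads2, a desaturase, at 0.76 ± 0.38. At an unadjusted p under 0.05 the whole comparison held 1379 genes.

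Interferon-induced genes showed the largest list median. All 34 tested members had positive log2 fold changes, from 0.78 to 6.94 with a median of 2.10, and groups did not overlap in 25. Called by edgeR were 4: Stat2, Ifit2, Ifi27l2a and Ifi204; DESeq2 with the same block called 19 and limma-voom 12. Summed over the 34, levels were 4207, 4921 and 1175 CPM in Tumor without Myelin, 895, 1014 and 867 CPM in Myelin Alone, and 1022, 1031 and 1349 CPM in Control. Numbers 957 and 958 with tumor material stood far above all other libraries shown, and number 016 stood above its Myelin Alone partner but below its own Control. The median log2 ratio was 2.40, 2.67 and 0.64 in pairs 957, 958 and 016. Without the 4 libraries of number 016, 33 of 34 were called, and without Tumor without Myelin 016 alone, 10; without number 957 or 958, 0 were.

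Stat2, a transcription factor of the type I interferon response (ENSMUSG00000040033, chr10:128270559-128292849), was at 115, 141 and 43.2 CPM with tumor material and 30.8, 36.6 and 27.8 CPM with myelin. The groups did not overlap, and the log2 fold change was 1.53 ± 0.26 (edgeR adjusted p = 0.0225; 0.165 without Myelin Alone 958). Ifit2, which binds RNA in the antiviral response (ENSMUSG00000045932, chr19:34550694-34576419), was at 80.7, 71.5 and 23.9 CPM against 3.32, 1.82 and 2.27 CPM, a log2 fold change of 4.52 ± 0.79 (edgeR adjusted p = 0.0245; 0.169 without Myelin Alone 958). Control was at 5.22, 5.38 and 22.6 CPM, so in number 016 Control and tumor material were at nearly the same level.

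Irf7, the factor that amplifies interferon production, was at 398, 518 and 30.0 CPM against 22.4, 19.0 and 14.5 CPM (3.55 ± 0.89, edgeR adjusted p = 0.111; 8.31e-06 without number 016). Ifit1, a sensor of viral RNA caps, was at 114, 123 and 19.7 CPM against 8.01, 6.34 and 9.15 CPM (3.36 ± 1.14, edgeR adjusted p = 0.273; 9.48e-05 without number 016). Neither was called with the 3 pairs, although their groups did not overlap. Ifi27l2a was at 150.2, 294 and 45.3 CPM against 9.37, 34.4 and 19.7 CPM (2.68 ± 0.53, edgeR adjusted p = 0.0411; 0.261 without Myelin Alone 958). Ifi204, which binds DNA, was at 223, 220.5 and 83.3 CPM against 66.0, 68.3 and 58.4 CPM (1.34 ± 0.27, edgeR adjusted p = 0.0442; 0.267 without Myelin Alone 958). It belongs with Ifi207 to a cluster of near-identical genes on chromosome 1, and Ifit3 and Ifit3b are likewise similar, so the share of reads of each copy is uncertain.

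Promoters of many genes of this list hold the letters of the interferon-stimulated response element, the sequence bound by complexes that hold STAT2 and IRF9. The letters GAAANNGAAA were found on either strand for 14 of 23 genes of the interferon list with a matched promoter (60.9%). They were found for 7 of 8 interferon gamma GTPases (87.5%) and in 3.44% of 32851 promoters. Lists are counted by gene and the background by promoter, so these shares are not in like units. The 2 stretches shown, chr10:128270256-128270305 and chr19:34640765-34640833 on the plus strand, carry the element on the opposite strand, so the capitals spell its reverse complement.
Stat2: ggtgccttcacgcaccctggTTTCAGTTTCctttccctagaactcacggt
Ifit1: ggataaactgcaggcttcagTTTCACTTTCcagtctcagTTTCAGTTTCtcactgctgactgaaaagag
Stat2 held 1 match and Ifit1 2. The list was made of genes known to respond to interferon, so the share describes the list and is no result of the comparison.

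**Figure D3:**
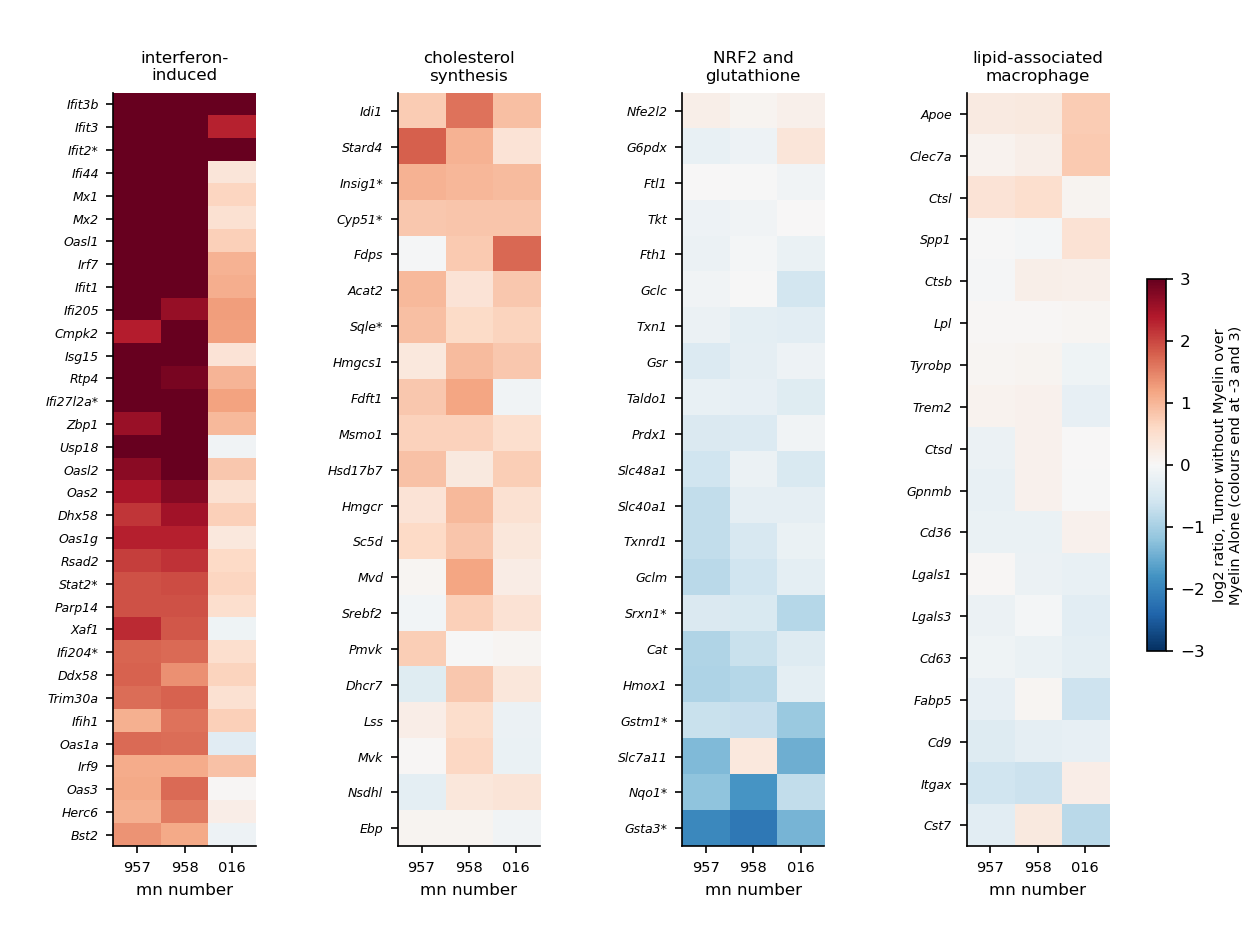
Log2 ratios of Tumor without Myelin over Myelin Alone in each pair (columns, mn numbers 957, 958 and 016) for tested genes of 4 lists (not all are drawn; rows, ordered by the fitted log2 fold change); red is higher with tumor material, blue lower, colours saturate at the ends of the scale, and an asterisk marks a called gene. The interferon panel is red in 957 and 958 and paler in 016 except for Ifit2, Ifit3 and Ifit3b (medians 2.40, 2.67 and 0.64), the cholesterol panel is red in most cells, the NRF2 panel mostly blue, and the lipid-associated macrophage panel pale.

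GTPases of the interferon gamma response, which attack vacuoles of pathogens, had positive log2 fold changes in 10 of 10 tested members (median 1.25; 1.53, 1.81 and 0.72 in the pairs) and 1 call. Gbp9 (ENSMUSG00000029298, chr5:105077630-105139539) was at 39.4, 27.2 and 19.5 CPM against 6.64, 3.03 and 6.60 CPM. Its groups did not overlap, with a log2 fold change of 2.35 ± 0.35 (edgeR adjusted p = 0.00810; 0.0668 without Tumor without Myelin 957), and near-identical Gbp genes may share its reads. Ifi47, another of these GTPases, had pair ratios of 2.53, 2.43 and 0.69 on the log2 scale and groups that did not overlap (1.95 ± 0.43, edgeR adjusted p = 0.0639). Gm5431, a gene on chromosome 11 (chr11:48887422-48902214) named by the size of its change, was at 33.0, 34.6 and 10.6 CPM against 5.06, 2.26 and 3.44 CPM (2.76 ± 0.47, edgeR adjusted p = 0.0205; 0.131 without Myelin Alone 958). Phf11b, outside this list like Gm5431, had pair ratios of 2.08, 2.52 and 1.47 on the log2 scale. Its groups did not overlap (2.11 ± 0.44, edgeR adjusted p = 0.0498, and 0.277 without Myelin Alone 958).

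Antigen presentation genes were not called by edgeR, DESeq2 or limma-voom over the 3 pairs. Without number 016, edgeR called 3 class I members higher, among them Psmb9 (edgeR adjusted p = 0.0420), and 0 class II members. Class I genes and the immunoproteasome (16 tested) had a median of 0.29 and 15 positive members, with pair medians of 0.48, 0.62 and -0.16, so pair 016 pointed the other way. Psmb9, an immunoproteasome subunit, was at 112, 164 and 59.6 CPM against 60.5, 100.3 and 56.8 CPM (0.54 ± 0.21, edgeR adjusted p = 0.361), and Tap1, a subunit of the peptide transporter whose gene overlaps it in position, had 0.62 ± 0.25 (edgeR adjusted p = 0.391). Class II genes (9 tested) had a median of 0.16. H2-Ab1, a class II beta chain, was at 502, 633 and 187 CPM against 379, 525 and 215 CPM (0.16, 95% interval -0.38 to 0.70), H2-DMa, which helps load class II peptides, had 0.31 ± 0.10 and Cd74, the invariant chain, 0.25 ± 0.21. Costimulatory and checkpoint ligands (13 tested) had a median of 0.29 and 0 calls by edgeR, DESeq2 or limma-voom, with Lgals9, galectin 9, at 0.81 ± 0.25 and Vsir, the checkpoint ligand VISTA, at 0.33 ± 0.11. Lgals9 had an edgeR adjusted p of 0.00108 without number 016.

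MS4A membrane proteins, a family of small tetraspan proteins clustered on chromosome 19, had positive log2 fold changes in 8 of 9 tested members (median 1.07), and 3 were called higher. Ms4a6b (ENSMUSG00000024677, chr19:11516512-11531256) was at 129.9, 212 and 75.2 CPM in Tumor without Myelin, 31.4, 41.3 and 24.4 CPM in Myelin Alone, and 21.2, 38.6 and 14.4 CPM in Control. The groups did not overlap and the 3 pairs were alike, at 2.05, 2.36 and 1.62 on the log2 scale. Its log2 fold change of 2.00 ± 0.17, 4.01-fold, had the smallest adjusted p of the comparison, shared with Dck (edgeR adjusted p = 0.000553, and at most 0.0148 with 1 library left out). Ms4a6c was at 201, 264 and 99.9 CPM against 67.2, 109 and 55.6 CPM, with overlapping groups (1.23 ± 0.14, edgeR adjusted p = 0.00226). Ms4a4a was at 19.6, 17.7 and 5.77 CPM against 3.05, 1.93 and 0.610 CPM (3.01 ± 0.42, edgeR adjusted p = 0.00686; 0.0578 without Myelin Alone 958). Members of this family are similar in sequence and Ms4a6c overlaps the annotated gene BE692007 in position, so reads may be shared among them.

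Complement genes had positive log2 fold changes in 10 of 12 tested members (median 0.50), and 4 were called higher. The C1q chains, which form the recognition part of the classical pathway, lie next to each other on chromosome 4. C1qa (ENSMUSG00000036887, chr4:136895917-136898803) was at 409, 693 and 365 CPM against 134, 356 and 152 CPM, with groups that did not overlap (1.26 ± 0.20, edgeR adjusted p = 0.0138; 0.0685 without Tumor without Myelin 957). C1qb was at 2337, 3778 and 1773 CPM against 1222, 2537 and 940.0 CPM (0.81 ± 0.14, edgeR adjusted p = 0.0259; 0.102 without Tumor without Myelin 016). C1qc was at 1904, 2678 and 1523 CPM against 947, 1835 and 814 CPM (0.82 ± 0.14, edgeR adjusted p = 0.0249; 0.116 without Tumor without Myelin 957). For the last 2 chains the groups overlapped, with number 958 highest in each group, and the 3 pair ratios were positive. C5ar1, the receptor for the fragment C5a (ENSMUSG00000049130, chr7:16246743-16259540), was at 1086, 919 and 1152 CPM against 529.7, 573 and 585 CPM and stayed called without any single library (0.90 ± 0.12, edgeR adjusted p = 0.00581).

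Receptors for uptake had positive log2 fold changes in 17 of 22 tested members (median 0.37; 0.11, 0.20 and 0.74 in the pairs), and 5 were called higher. Fcgr1, the high-affinity IgG receptor (ENSMUSG00000015947, chr3:96282909-96293969), was at 202, 311 and 120.4 CPM against 56.4, 77.0 and 68.9 CPM, with groups that did not overlap (1.51 ± 0.23, edgeR adjusted p = 0.00841; 0.0699 without Myelin Alone 958). Cd14, the coreceptor for lipopolysaccharide, was at 588, 519.7 and 347 CPM against 222, 242 and 213 CPM (1.07 ± 0.16, edgeR adjusted p = 0.00810; 0.0699 without Myelin Alone 958). Control was at 368, 412 and 366 CPM, above the 3 libraries with myelin. Fcgr4, another IgG receptor, Itgav, an integrin chain, and Msr1, the class A scavenger receptor, had 0.80 ± 0.13, 0.85 ± 0.15 and 0.55 ± 0.11; their edgeR adjusted p of 0.0205, 0.0221 and 0.0422 rose to 0.119 and 0.101 without Tumor without Myelin 958 and to 0.216 without Tumor without Myelin 957. Mrc1, the mannose receptor, was at 23.5, 17.9 and 59.6 CPM against 21.4, 7.78 and 25.1 CPM (0.81 ± 0.24, edgeR adjusted p = 0.178).

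Genes associated with microglia, the macrophages of brain, had positive log2 fold changes in 10 of 11 tested members (median 1.26), and C1qa and Fcrls were called higher. Fcrls, an Fc receptor-like protein (ENSMUSG00000015852, chr3:87250758-87263738), was at 72.4, 112 and 142 CPM with tumor material, 33.2, 33.8 and 25.0 CPM with myelin and 16.9, 19.9 and 7.65 CPM in Control. The groups did not overlap, and number 016 had the widest gap (1.81 ± 0.34, edgeR adjusted p = 0.0321; 0.189 without Myelin Alone 958). Of the 7 defining microglia markers, Sall1 was at 0 in all 6 libraries. P2ry12 was at 1.59, 1.43 and 3.58 CPM against 0.263, 0.0551 and 1.50 CPM, and Tmem119 at 1.95, 6.05 and 28.4 CPM against 1.37, 2.32 and 5.99 CPM. Their groups overlapped and neither was called. The 7 markers summed to 359 to 475 CPM with tumor material and 154 to 307 CPM with myelin, mostly Olfml3 and Fcrls, and the part of microglia among the sorted cells in these results was not tested.

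**Figure D4:**
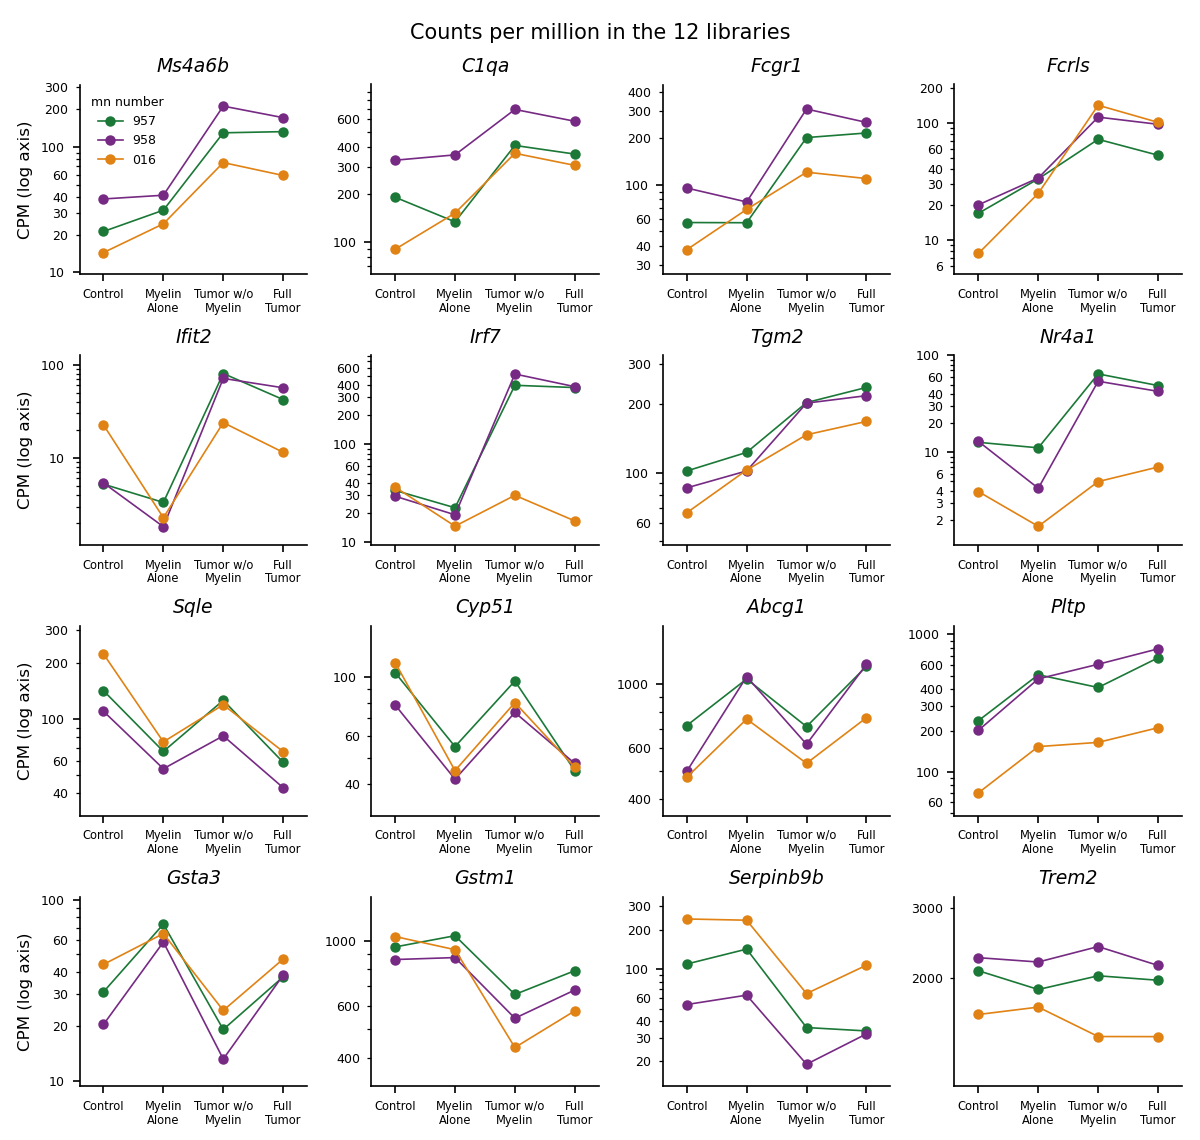
CPM (log axis) of 16 genes in the 12 libraries by group, with a line for each mn number (957 green, 958 purple, 016 orange) that joins its libraries for reading and carries no order. From Myelin Alone to Tumor without Myelin the lines of Ms4a6b, C1qa, Fcgr1, Fcrls, Ifit2, Tgm2, Nr4a1, Sqle and Cyp51 go up and those of Abcg1, Gsta3, Gstm1 and Serpinb9b go down in each number; for Irf7 the step of number 016 is small (14.5 to 30.0 CPM), and Trem2 lies between 1422 and 2394 CPM in the 6 libraries compared.

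Chemokines and their receptors had positive log2 fold changes in 19 of 23 tested members (median 0.54), and 4 were called higher. Ccl6, a chemokine of myeloid cells, was at 72.6, 84.3 and 79.4 CPM against 42.4, 50.6 and 40.3 CPM and stayed called without any single library (0.83 ± 0.11, edgeR adjusted p = 0.00581). Its Control was at 73.9, 87.7 and 72.6 CPM, so the libraries with myelin were the low ones, as the call of myelin against Control shows (-0.81 ± 0.11, edgeR adjusted p = 0.0353). Cxcl16, which also binds oxidized lipoproteins, and Pf4, platelet factor 4, had 0.47 ± 0.09 and 0.87 ± 0.18 with overlapping groups; their edgeR adjusted p of 0.0395 and 0.0471 rose to 0.169 without Myelin Alone 958 and to 0.238 without Tumor without Myelin 957. Ccl2, which attracts monocytes, was at 1.85, 4.28 and 339 CPM against 2.95, 3.03 and 267 CPM, with number 016 far above the others in each group (0.16, 95% interval -0.75 to 1.07). Cxcl10, an interferon-induced chemokine, was at 1.28, 2.63 and 6.86 CPM against 0, 0 and 2.27 CPM and was not called (edgeR adjusted p = 0.281).

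Inflammatory cytokines and NF-kB feedback genes (21 tested) had a median of 0.44 with 0 calls by edgeR and 1 by DESeq2. Il1b, interleukin 1 beta, was at 0.924, 1.48 and 0 CPM with tumor material and 0 in the 3 libraries with myelin, too low for a fold. Il10, an anti-inflammatory cytokine, was at 10.2, 16.8 and 8.26 CPM against 1.95, 5.35 and 6.48 CPM, with groups that did not overlap (1.39 ± 0.42, edgeR adjusted p = 0.191). Of 13 tested genes of alternative activation, 1 was called: Tgm2, transglutaminase 2 (ENSMUSG00000037820, chr2:158116402-158146436), at 203, 202 and 147 CPM against 123, 102 and 103 CPM (0.74 ± 0.11, edgeR adjusted p = 0.00810; 0.0649 without Myelin Alone 958). DESeq2 with the same block called 3 genes of alternative activation higher, and limma-voom 1. Arg1, arginase 1, stood at 1.95, 0.171 and 0.971 CPM against 0.421, 0 and 0.0554 CPM, near the floor.

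Enzymes of antioxidant defence were among the genes called lower with the tumor material. Of 21 tested genes of the NRF2, glutathione and thioredoxin list, 20 had negative log2 fold changes (median -0.41; -0.44, -0.28 and -0.30 in the pairs), 4 were called lower and 7 had groups that did not overlap. DESeq2 with the same block called 11 lower and limma-voom 8. Gsta3, a glutathione transferase (ENSMUSG00000025934, chr1:21240589-21265661), was at 19.2, 13.2 and 24.5 CPM with tumor material, 73.3, 58.3 and 65.0 CPM with myelin and 31.0, 20.5 and 43.9 CPM in Control. The libraries with myelin stood above all others, and the log2 fold change was -1.84 ± 0.20 (edgeR adjusted p = 0.00226), called without any single library.

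Gstm1, a glutathione transferase of the mu class (ENSMUSG00000058135, chr3:108012255-108017973), was at 657, 545 and 433 CPM with tumor material, 1043, 878 and 935 CPM with myelin and 955, 865 and 1036 CPM in Control. Here myelin and Control overlapped and the libraries with tumor material stood below both (-0.81 ± 0.12, edgeR adjusted p = 0.00912; 0.0575 without Myelin Alone 958). Mu class genes are similar in sequence and may share reads. Nqo1, a quinone reductase, was at 12.6, 5.42 and 20.9 CPM against 29.4, 18.7 and 34.9 CPM, lower in each pair with overlapping groups (-1.26 ± 0.23, edgeR adjusted p = 0.0294; 0.165 without Tumor without Myelin 958). Srxn1, sulfiredoxin, was at 118, 146 and 85.5 CPM against 158, 201 and 154 CPM (-0.58 ± 0.12, edgeR adjusted p = 0.0442; 0.207 without Tumor without Myelin 957). Mgst2, a microsomal glutathione transferase, was at 4.31, 4.22 and 8.07 CPM against 9.48, 16.0 and 18.1 CPM (-1.41 ± 0.26, edgeR adjusted p = 0.0321; 0.189 without Myelin Alone 958). Chosen after their values were seen, Mgst1, Prdx6 and Ptgr1, which also detoxify peroxides or lipid aldehydes, were called lower at -0.49, -0.48 and -0.72, and their edgeR adjusted p rose to 0.138, 0.143 and 0.0668 without Tumor without Myelin 957. Glrx, glutaredoxin, also chosen after its values were seen, was called higher at 0.79 (edgeR adjusted p up to 0.0502, without Myelin Alone 958).

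The letters TGACNNNGC of the antioxidant response element were found on either strand for 7 of 16 genes of the list with a matched promoter (43.8%). Of all promoters, 12.4% held them, again counted by promoter and not by gene. Gsta3 held a match in chr1:21240444-21240492 on the plus strand, shown in capitals.
Gsta3: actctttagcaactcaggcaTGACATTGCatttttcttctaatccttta
The list was again made of known targets, so this share describes its choice.

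Of 24 tested genes of glycolysis and hypoxia, 20 had negative log2 fold changes (median -0.21), and 1 was called lower: Ndrg1, a gene induced by hypoxia and stress (ENSMUSG00000005125, chr15:66929318-66969640), at 28.2, 20.4 and 28.7 CPM against 56.1, 37.5 and 55.1 CPM (-0.94 ± 0.14, edgeR adjusted p = 0.00810; 0.0656 without Tumor without Myelin 958). Aldoa, aldolase, was at 2698, 2694 and 2973 CPM against 3248, 3399 and 3466 CPM, with groups that did not overlap (-0.27 ± 0.07, edgeR adjusted p = 0.0960). Atf5, a transcription factor of the integrated stress response, was at 5.60, 8.05 and 3.89 CPM against 11.7, 25.8 and 10.1 CPM (-1.40 ± 0.27, edgeR adjusted p = 0.0409; 0.254 without Myelin Alone 958). Chosen after their values were seen, Atf4, the main factor of that response, Phgdh, the entry enzyme of serine synthesis, and Mthfd2, a mitochondrial folate enzyme, were called lower at -0.69, -1.23 and -0.58; each lost the call without at least 9 of the 12 single libraries. Mitochondrially encoded transcripts (11 tested) had a median of 0.25 and 0 calls by edgeR, DESeq2 or limma-voom, with mt-Nd1 at 0.34 ± 0.19 and mt-Nd2 at 0.30 ± 0.19.

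**Figure D5:**
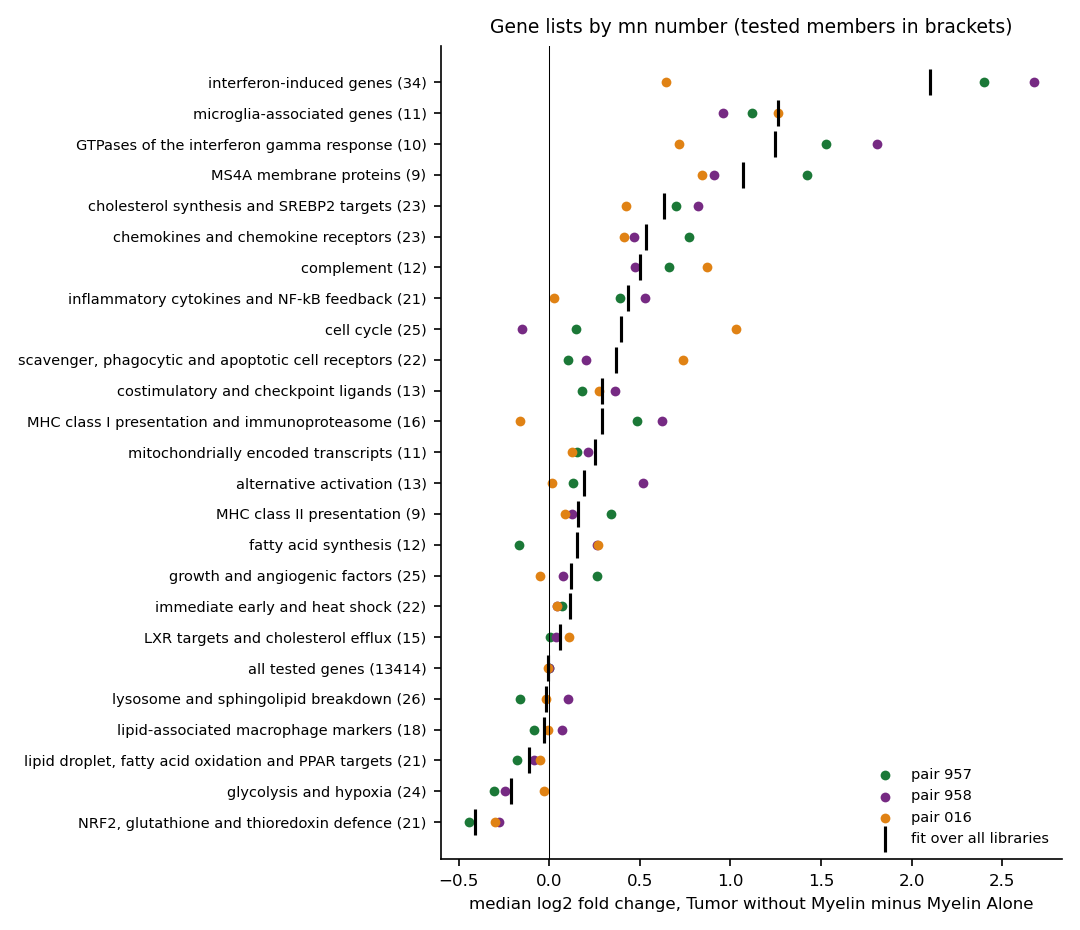
Median log2 fold change, Tumor without Myelin minus Myelin Alone, of the tested members of 24 gene lists and of all tested genes (rows, number of members in brackets); coloured points are the medians in pairs 957, 958 and 016 and the black bar is the median of the fit. Interferon-induced genes lie highest (2.10) with pair 016 far to the left of the others (0.64), cell cycle genes are spread the other way (1.03 in pair 016 against -0.15 in 958), and the NRF2 list lies lowest (-0.41).

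Among 22 tested immediate early and heat shock genes, 3 were called higher. Nr4a1, a nuclear receptor induced within minutes of a stimulus (ENSMUSG00000023034, chr15:101254269-101274795), was at 64.5, 54.2 and 4.98 CPM against 11.1, 4.25 and 1.72 CPM, higher in each pair, with overlapping groups and number 016 lowest in each (2.65 ± 0.38, edgeR adjusted p = 0.00722; 0.0625 without Tumor without Myelin 957). Zfp36, which destabilises cytokine mRNA (ENSMUSG00000044786, chr7:28376784-28380253), was at 254, 279 and 102 CPM against 121, 141 and 65.2 CPM. Its groups overlapped, and it stayed called without any single library (0.91 ± 0.12, edgeR adjusted p = 0.00531). Fos was at 581, 585 and 218 CPM against 218, 259 and 174 CPM (0.98 ± 0.17, edgeR adjusted p = 0.0249; 0.165 without Myelin Alone 958). The other heat shock and immediate early genes were split, 8 of the 22 being negative.

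Cell cycle genes (25 tested, 22 positive, median 0.40) had 0 calls by edgeR, 2 higher by DESeq2 and 1 by limma-voom. Their pair medians differed, at 0.15 in 957, -0.15 in 958 and 1.03 in 016, and without the library Tumor without Myelin 016 the median of the fit was -0.0067. Summed over the list, levels were 1121, 1083 and 4018 CPM against 1014, 1254 and 2107 CPM, so the 016 library with tumor material stood apart. Mcm2, a subunit of the replicative helicase, was at 37.7, 54.7 and 121 CPM against 30.7, 35.0 and 63.8 CPM (0.62 ± 0.15, edgeR adjusted p = 0.0872), and Mcm3, another subunit, had 0.65 ± 0.20. Growth and angiogenic factors (25 tested) had a median of 0.12 and 0 calls by edgeR, against 3 higher and 1 lower by DESeq2 and 1 higher by limma-voom. Tgfbi, a matrix protein induced by TGF-beta, was at 434, 439 and 511 CPM against 269.6, 315 and 329 CPM (0.60 ± 0.13) and was not called, and Thbs1, thrombospondin 1, was at 20.7, 14.3 and 10.9 CPM against 3.95, 3.53 and 5.54 CPM (1.81 ± 0.42, edgeR adjusted p = 0.0796).

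Several called genes lay outside these lists, and they differed in how steady their calls were. Dck, deoxycytidine kinase of nucleotide salvage (ENSMUSG00000029366, chr5:88764996-88783281), was chosen after its values were seen, as the gene that was called with and without the block. It was at 165, 149 and 186 CPM in Tumor without Myelin, 61.1, 52.2 and 74.8 CPM in Myelin Alone and 86.6, 81.5 and 106 CPM in Control. The pairs were alike at 1.44, 1.51 and 1.31, and the log2 fold change was 1.42 ± 0.12 (edgeR adjusted p = 0.000553 with the block and 0.0421 without). Siglec1, the sialic acid receptor CD169 (ENSMUSG00000027322, chr2:131069220-131086765), was at 23.9, 49.1 and 20.0 CPM against 10.8, 8.38 and 4.99 CPM (1.93 ± 0.26, edgeR adjusted p = 0.00581; 0.0536 without Myelin Alone 958). Pilra, an inhibitory receptor of myeloid cells, was at 8.27, 13.5 and 11.9 CPM against 2.16, 2.76 and 2.27 CPM, and stayed called without any single library (2.20 ± 0.28, edgeR adjusted p = 0.00531). Gm4951 and Slfn1, chosen after their values were seen, were called higher and had 0 counts in the 3 libraries with myelin, so no fold is given. With tumor material Gm4951 was at 8.88, 16.0 and 0.304 CPM and Slfn1 at 10.7, 12.2 and 1.21 CPM, lowest in number 016 (edgeR adjusted p = 0.0163 and 0.0409; 0.120 and 0.189 without Myelin Alone 958). Filip1l was at 22.6, 35.4 and 15.2 CPM against 8.22, 7.00 and 2.44 CPM (2.11 ± 0.31, edgeR adjusted p = 0.00810; 0.0699 without Myelin Alone 958).

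Other genes that stayed called without any single library were chosen after their values were seen. Ctsc, cathepsin C, which activates granule proteases, was at 405, 271 and 668 CPM against 173, 120.4 and 209.8 CPM (1.36 ± 0.15, edgeR adjusted p = 0.00226). Aif1, the actin-binding protein IBA1 of macrophages and microglia, was at 94.7, 191 and 68.7 CPM against 25.6, 90.4 and 18.6 CPM (1.60 ± 0.18, edgeR adjusted p = 0.00227). The first had groups that did not overlap, and in Aif1 the Myelin Alone library of number 958 reached into the range of the tumor libraries. Dab2, an adaptor of endocytosis, Zfp36l1, a relative of Zfp36, Ly86, a partner of the Toll-like receptor relative RP105, and Cd72, an inhibitory lectin, had 1.42 ± 0.19, 1.49 ± 0.17, 1.13 ± 0.13 and 0.73 ± 0.09.

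Of the genes lower with tumor material, Serpinb9b, a serpin that inhibits proteases (ENSMUSG00000021403, chr13:33027416-33041884), had the lowest log2 fold change among called genes. It was at 35.8, 18.8 and 65.1 CPM against 142, 63.3 and 236 CPM, and at 109, 53.7 and 241 CPM in Control. The groups overlapped, with number 016 highest in each, and the pairs were alike at -1.98, -1.74 and -1.85, giving -1.87 ± 0.19 (edgeR adjusted p = 0.00226, and at most 0.0187 with 1 library left out). Procr, the endothelial protein C receptor, chosen after its values were seen, was at 53.1, 46.9 and 71.6 CPM against 119.5, 97.9 and 162 CPM, with groups that did not overlap (-1.14 ± 0.12, edgeR adjusted p = 0.00226).

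The remaining genes with the lowest log2 fold changes were less abundant. Cd24a, a surface glycoprotein, was at 5.60, 3.88 and 16.3 CPM against 16.5, 9.60 and 44.1 CPM, with Control at 6.07, 3.79 and 23.1 CPM (-1.44 ± 0.20, edgeR adjusted p = 0.00686; 0.0623 without Tumor without Myelin 957). Lat, an adaptor best known from T cells, was at 2.21, 1.43 and 16.9 CPM against 6.53, 7.67 and 49.3 CPM (-1.81 ± 0.27, edgeR adjusted p = 0.00912; 0.0720 without Tumor without Myelin 957). Uchl1, a ubiquitin hydrolase, was at 16.0, 10.6 and 36.7 CPM against 32.0, 36.3 and 77.0 CPM (-1.29 ± 0.18, edgeR adjusted p = 0.00692; 0.0623 without Tumor without Myelin 958). These 3 genes had overlapping groups, with number 016 high in both, and were lower in each pair. T and NK cell markers summed to 1.58 to 3.08 CPM with tumor material and 2.53 to 3.58 CPM with myelin, with Cd3e, Cd3d and Cd3g at 0.

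Gm20658 (-1.59 ± 0.22) stayed called without any single library (edgeR adjusted p = 0.00597). Tst, a sulfurtransferase of mitochondria (-1.31 ± 0.26), Dio2, which activates thyroid hormone (-1.29 ± 0.25), and Plpp3, a lipid phosphate phosphatase (-1.29 ± 0.26), had groups that did not overlap. Their edgeR adjusted p of 0.0442, 0.0409 and 0.0462 rose to 0.257, 0.189 and 0.258 without Myelin Alone 958. Dio2 differed from Control with tumor material (-1.72 ± 0.26, edgeR adjusted p = 0.0128) and had -0.42 ± 0.24 with myelin (edgeR adjusted p = 0.897).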

How the data were processed

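Total RNA of sorted cells was made into cDNA with an oligo-dT primer, per the labels' protocols, so read counts favour polyadenylated transcripts. The authors deposited raw counts per gene (whole numbers, not normalized), with Ensembl identifiers and positions on mm10, the build in the submitters' processing notes. Which programs aligned and counted the reads, and whether strand was used, is not given in the sources used here; counts of genes that overlap, lie antisense or resemble each other closely may therefore be mixed. From the counts, edgeR 4.0.16 (R 4.3.3; quasi-likelihood test, TMM, filterByExpr, Benjamini-Hochberg over 13414 genes, two-sided, threshold 0.05) was fitted to the 12 libraries with group and mn number as terms, leaving 6 residual degrees of freedom. The libraries were paired by number. Deviations from the group means correlated above 0.1 in 18 of 18 same-numbered pairs (0.120 to 0.631 across genes). Between Tumor without Myelin and Myelin Alone, same-numbered pairs had 0.177 to 0.499 and different-numbered pairs at most 0.0814. Full Tumor 957 correlated more with number 958 than with number 957 of each other group (Tumor without Myelin, 0.256 against 0.217). The cut of 0.1 therefore does not set numbers 957 and 958 apart in all groups. Pair ratios used log2 CPM with a prior count of 2. Chi-square per degree of freedom within the 2 groups was 42.0 to 142, so no library was a duplicate. The procedure was tested on simulated data, and the outcome is not given here.

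Genes were named by 3 rules: the 12 highest and 12 lowest called log2 fold changes reaching 10 CPM on average in their higher group, with 1 direction over the pairs; the 2 members of each of 24 lists with the smallest p; and 22 genes of lipid handling and macrophage state. The comparison, the lists and the genes were chosen with earlier results of these data known. Alternatives were no block, only the 6 libraries, DESeq2 size factors, library totals, no filter, at least 10 CPM in 3 libraries, DESeq2 1.42.0, limma-voom (limma 3.58.1), and leaving out libraries or numbers. Some genes are not reported here.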

Additional observations from a re-analysis of the deposited data

How the results depend on the processing

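The count of 125 called genes (89 higher, 36 lower) depended on the processing. Without the replicate block it was 1 (1 higher, 0 lower), without the low-count filter 246 (184 and 62), with at least 10 CPM in 3 libraries 201 (138 and 63), and by DESeq2 with the block 569 (362 and 207); limma-voom gave 179 (124 and 55). Leaving out a library or a whole mn number gave 1 to 211 calls, 0 to 153 higher and 1 to 61 lower. The 6 libraries alone gave 106 calls, of which 75 were among the 125, and each list had 0 called members without the block. No called gene changed sign under these settings.

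Several values changed sign, most of them near 0. The cell cycle median of 0.40 was -0.0067 without Tumor without Myelin 016 and -0.0066 without number 016, and the lysosome median of -0.02 reached 0.028 without number 957. The log2 fold change of Trem2 was 0.024 without the block, 0.0057 with the 6 libraries alone, 0.0056 with DESeq2 size factors, 0.0049 without the filter and 0.0078 by DESeq2 and by limma-voom, and -0.065 to 0.12 when libraries or numbers were left out. The log2 fold change of Abca1 was -0.037 without the block and -0.036 by limma-voom, and -0.24 to 0.33 when they were left out. In the same settings Gpnmb ran from -0.13 to 0.059, Pltp from -0.096 to 0.24 and Ccl2 from -0.33 to 0.38. The LXR median was -0.021 without the block and -0.023 by limma-voom, and -0.096 to 0.23 when libraries or numbers were left out. The median of alternative activation was -0.033 without the block, -0.048 with at least 10 CPM, and -0.25 to 0.51. The causes were not tested. Library totals in place of TMM gave 122 calls, 64.8% of them higher against 71.2%. With 3 libraries a group and a floor of 0.154 to 0.182 CPM, genes such as Il1b and Arg1 were too low for a fold.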
